A study of Mus musculus with 18 samples.

Results

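The 37 genes of the mouse mitochondrial chromosome were followed in the lacrimal glands (LGs) of BALB/c and NOD.H-2b males, among the 54232 genes of the count table. They comprise 13 genes for proteins, 2 for ribosomal RNAs (rRNAs) and 22 for transfer RNAs (tRNAs), and were chosen as all genes with a symbol that begins with mt-. The count table itself used that prefix for 24 of them. The 13 protein genes stand there under other symbols and were matched by Ensembl identifier to their mt- symbols in the GENCODE M21 annotation. LGs of 18 male mice were sequenced, 3 in each of 6 groups of strain (BALB/cJ as control, or NOD.B10Sn-H2b/J) and age (2, 4 or 6 months, called 2M, 4M and 6M), and each sample was a single gland of a single mouse. No transgene, deletion or treatment is given for any group. NOD.H-2b mice serve as a model of Sjögren's syndrome, in which immune cells infiltrate the exocrine glands, and BALB/c mice differ from them in genetic background as well, so disease and background cannot be told apart.

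The mitochondrial genome is a small circle that is transcribed from both strands into long precursors. The tRNAs lie between most of the protein and rRNA genes and are cut out of these precursors, which frees the other RNAs. The protein genes encode core subunits of the respiratory chain: 7 belong to complex I (mt-Nd genes), mt-Cytb to complex III, 3 to complex IV (mt-Co genes) and 2 to the ATP synthase (mt-Atp genes). All other chain subunits, the polymerase and the proteins of the mitochondrial ribosome are made from nuclear genes. LG acinar cells secrete tear proteins, and secretion of this kind uses ATP made by mitochondria.

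The authors depleted rRNA, sequenced pairs of 75-base reads and counted them per Ensembl gene. The deposited counts summed to between 49480781 and 103936830 per mouse. Between 916621 and 2098671 of them fell on the 37 genes. Of these genes, 9 had at least 1000 counts in every mouse (mt-Rnr1, mt-Rnr2, mt-Nd1, mt-Nd2, mt-Co1, mt-Nd4, mt-Nd5, mt-Nd6 and mt-Cytb) and 3 tRNA genes had between 10 and 1000. Another 9 genes exceeded 3 counts in some mouse but had under 10 in others, 7 never exceeded 3 counts, and 9, all tRNA genes, were at 0 in every mouse. A count of 0 allows up to 3 counts, and tRNA genes are as a rule shorter than a read of this kind, so these values set limits on detection in these libraries and not on the RNA. Since the mitochondrial rRNAs are targets of common depletion kits, levels of mt-Rnr1 and mt-Rnr2 are those left after depletion, which was not measured per library.

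The 13 protein genes fell into 2 separate classes by count. The 7 abundant genes had at least 2777 counts in every mouse, whereas mt-Co2, mt-Co3, mt-Atp6, mt-Atp8, mt-Nd3 and mt-Nd4l had at most 22 counts in any mouse and together held 0.00783% of all protein gene counts. This gap runs through genes of the same complex: mt-Co1 had a median of 135372.5 counts, while mt-Co2 and mt-Co3, which encode the other mitochondrial subunits of complex IV, had medians of 8.5 and 7.5 counts. Mitochondrial DNA is also present in the nuclear genome as inserted copies, and a read that matches both places equally can be discarded or assigned to either. All windows of 75 bases of each mt- gene were therefore searched in the annotated transcripts of all other genes (GENCODE M21, GRCm38). The share of windows also found elsewhere was 99.5% for mt-Co2, 99.9% for mt-Co3, 99.5% for mt-Atp6, 97.8% for mt-Nd3 and 98.7% for mt-Nd4l. It was 61.5% for mt-Nd4, 39.8% for mt-Co1, 5.71% for mt-Nd2 and 1.66% for mt-Nd5, and 0 for mt-Nd1, mt-Nd6, mt-Cytb and both rRNA genes. The low counts and the shared windows thus coincided in 5 of the 6 genes. The exception was mt-Atp8, a gene of 204 bases with no annotated copy, of which the last 43 bases overlap mt-Atp6 and which had at most 3 counts in any mouse. It lies at MT:7766-7969, inside the stretch spanned by the chromosome 1 copies described below. Sequence outside annotated transcripts was not searched, so whether mt-Atp8 has an unannotated copy there was not tested. How the study treated reads with several matches is not given in the sources used here, so the part of shared sequence in the low counts was not tested, and the 6 genes are described by their counts only.

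**Figure D1:**
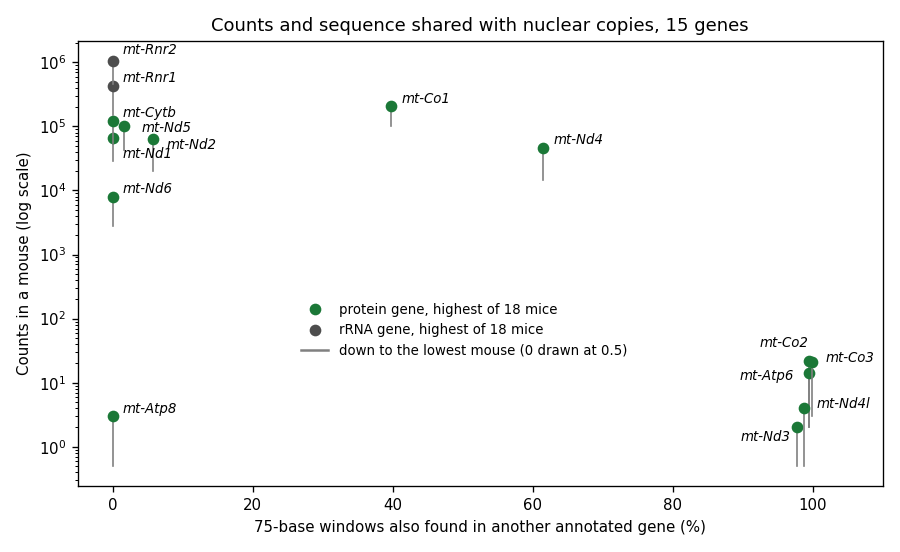
Counts of the 13 protein genes and 2 rRNA genes (log scale, highest of 18 mice as points, lines down to the lowest mouse) against the percentage of their 75-base windows that are also found in another annotated gene. Genes with 97.8% to 99.9% shared windows had at most 22 counts in any mouse, while mt-Nd4 and mt-Co1, with 61.5% and 39.8%, had at least 14742. mt-Atp8 shares no window with an annotated transcript of another gene and had at most 3 counts. Sequence outside annotated transcripts was not searched.

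The copies lie mainly in a run of 7 annotated pseudogenes on the minus strand of chromosome 1, from 24611535 to 24616197 (GRCm38). The outer ends of their matches are bases 6381 and 11042 of the mitochondrial chromosome, from the last part of mt-Co1 into mt-Nd4. Sequence between the annotated copies was not compared. Within the run, Gm28661 matched mt-Co2 over 681 bases, Gm28437 matched mt-Co3 over 783, Gm10925 matched mt-Atp6 over 678, Gm10222 matched mt-Nd4l over 294 and Gm28439 matched the start of mt-Nd4 over 876, all without a mismatch. Gm28438 differed from mt-Nd3 at 1 of 345 bases. The start of mt-Co2 (MT:7013-7072, plus strand) and of its copy on chromosome 1 (chr1:24615506-24615565, minus strand) are shown because a read from here cannot be placed by its sequence.
mt-Co2: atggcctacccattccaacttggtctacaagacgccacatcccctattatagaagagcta
Gm28661: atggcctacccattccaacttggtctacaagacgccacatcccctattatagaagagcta
For mt-Co1 the copies are less alike. Gm29216 on chromosome 1 differed at 6 of 492 bases, and Gm13340 on chromosome 2, which spans the whole gene, at 37 of 1545. The stretch where the match to chromosome 1 begins (MT:6381-6440, plus strand) is shown with both copies (chr1:24616138-24616197 and chr2:22588535-22588594, both minus strand), and capitals mark bases that differ from mt-Co1.
mt-Co1: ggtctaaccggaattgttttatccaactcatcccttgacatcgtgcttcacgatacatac
Gm29216: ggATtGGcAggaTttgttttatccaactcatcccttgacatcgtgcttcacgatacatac
Gm13340: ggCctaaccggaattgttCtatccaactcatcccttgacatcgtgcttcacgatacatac
All 6 differences of Gm29216 fall in its first bases, so that a read from further on matches both genes. The copies themselves were low, with at most 55 counts in any mouse for Gm28438 and fewer for the others. Of the 9 listed copies tested in the fit of all 18 mice, 1 was called between the strains, in a fit that called 65.5% of all genes (Gm13341, log2 fold change -0.55 ± 0.20 (SE), adjusted p = 0.0211 by edgeR's quasi-likelihood test). When counts were scaled to the library total, Gm13341 was -0.30 and not called (adjusted p = 0.195 by edgeR), and Gm10221 was called higher (0.62, adjusted p = 0.0158). With TMM no copy was called without BALB/c 2M replicate 2, BALB/c 4M replicate 2 or BALB/c 6M replicate 1, and 2 were called without NOD.H-2b 4M replicate 1 or 6M replicate 1 or 3.

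The tRNA genes held 146 to 295 counts per mouse in all. Of their 3513 counts over the 18 mice, 3201 (91.1%) lay on 4 genes that flank mt-Nd2: mt-Ti, mt-Tq and mt-Tm between mt-Nd1 and mt-Nd2, and mt-Tw behind it. Their sequences are shown as the transcripts that carry the tRNA counts (MT:3706-3774, MT:3772-3842 on the minus strand, MT:3845-3913 and MT:4950-5016), with capitals for bases that also belong to a neighboring gene.
mt-Ti: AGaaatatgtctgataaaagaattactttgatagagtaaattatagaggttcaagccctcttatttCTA
mt-Tq: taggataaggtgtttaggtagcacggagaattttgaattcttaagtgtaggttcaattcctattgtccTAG
mt-Tm: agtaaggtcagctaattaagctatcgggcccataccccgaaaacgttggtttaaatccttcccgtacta
mt-Tw: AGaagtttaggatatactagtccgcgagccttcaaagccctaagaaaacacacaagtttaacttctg
The end of mt-Nd1 overlaps mt-Ti by 2 bases, mt-Ti overlaps mt-Tq by 3, mt-Nd2 overlaps mt-Tw by 2, and no base lies between mt-Tm and mt-Nd2. All 4 tRNAs are shorter than 75 bases. A count on them can come from the tRNA or from a precursor that has not been cut, which cannot be told apart here.

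Per length, mt-Rnr2 had the highest median level of all 18 mice with 7032 CPM per kilobase, followed by mt-Rnr1 with 4058 (CPM are counts scaled to the library size, here after TMM normalization). Among the protein genes, mt-Co1 ranked highest with 1461 CPM per kilobase (range 1235 to 1645). It was followed by mt-Cytb with 960.2, mt-Nd1 with 612, mt-Nd5 with 484, mt-Nd2 with 451, mt-Nd4 with 275 and mt-Nd6 with 122 CPM per kilobase. The ranges of mt-Nd1 (490.4 to 870.2), mt-Nd5 (357 to 742) and mt-Nd2 (295 to 933.5) overlapped over the 18 mice. mt-Nd1 was above mt-Nd5 in each of the 9 mice of either strain. The place of mt-Nd2 differed between the strains, since it was above mt-Nd5 in 8 of 9 BALB/c mice (medians 608 and 589 CPM per kilobase) and below it in all 9 NOD.H-2b mice (medians 363 and 440.1). All counts of a gene were also divided by its number of windows that no other annotated gene shares. On this measure mt-Nd4 moved up to 754 CPM per 1000 windows, between mt-Cytb (1027) and mt-Nd1 (663), and mt-Co1 stayed highest with 2550. These values are upper limits, reached only if no read from a shared window was counted, which is not known. The lowest of the 7, mt-Nd6, encodes a complex I subunit and is the single protein gene on the other strand. It overlaps the end of mt-Nd5 by 14 bases. The library kit is not named as strand-specific and the strand setting of the count is not given in the sources used here, so reads of mt-Nd6 and of precursors of the opposite strand cannot be told apart. The lowest protein genes per length were mt-Nd3 and mt-Nd4l, with a median of 0 counts and at most 2 and 4 counts in any mouse.

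The share of each library on the 37 genes was 1.61, 1.63 and 1.55% at 2M, 2.22, 2.16 and 2.24% at 4M and 2.02, 2.41 and 2.38% at 6M in BALB/c. In NOD.H-2b it was 1.99, 1.72 and 1.89% at 2M, 1.99, 2.15 and 2.16% at 4M and 2.48, 2.44 and 2.57% at 6M. The 95% Wilson interval of any mouse was at most 0.00437 percentage points to either side, covering counting error only, so the spread between mice sets the precision. The shares of the strains did not overlap at 2M and 6M, where NOD.H-2b was higher, and overlapped at 4M. Averaged over ages, NOD.H-2b had 1.07 times the share of BALB/c, a difference that did not pass the test (adjusted p = 0.146, exact permutation of strain within age, 4 shares). Without NOD.H-2b 4M replicate 1 it passed (0.11 on the log2 scale, adjusted p = 0.048, exact permutation test). The share of the 2 rRNA genes differed by 1.09-fold (adjusted p = 0.116) and that of the protein genes by 1.02-fold (adjusted p = 0.714, both exact permutation tests). This result turns with the scale: relative to the TMM library size, the summed level of the 37 genes was lower in NOD.H-2b (log2 difference -0.17, adjusted p = 0.0215, exact permutation test). Without the 10 genes with the most counts in the library total, all 4 shares kept their direction and test outcome. TMM factors ran from 0.855 to 0.999 in BALB/c and from 1.01 to 1.30 in NOD.H-2b. In bulk tissue, fewer cells of a type and less RNA per cell cannot be told apart.

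The share rose with age in both strains. From 2M to 6M it went from 1.59% ± 0.039 to 2.27% ± 0.218 in BALB/c and from 1.87% ± 0.134 to 2.5% ± 0.0699 in NOD.H-2b (SD, n = 3), which is 1.38-fold over both strains (adjusted p = 0.015, exact permutation of age within strain, 12 tests). From 2M to 4M the rise was 1.25-fold (adjusted p = 0.024) and from 4M to 6M 1.11-fold (adjusted p = 0.0525), both by the exact permutation test. Relative to the TMM library size, the rise of all 37 genes from 2M to 6M was 1.33-fold (adjusted p = 0.02, exact permutation test). Over this interval the rRNA genes rose 1.44-fold as a share (adjusted p = 0.015) and 1.39-fold on the TMM size (adjusted p = 0.02). The 13 protein genes rose 1.24-fold as a share (adjusted p = 0.015). On the TMM size their 1.20-fold change did not pass (adjusted p = 0.06, all by exact permutation). Their log2 change there was 0.07 for NOD.H-2b mice against 0.45 for BALB/c mice. The share of the tRNA genes, at 146 to 295 counts per mouse, was 0.994-fold from 2M to 6M and did not pass the test (adjusted p = 0.975, exact permutation test).

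**Figure D2:**
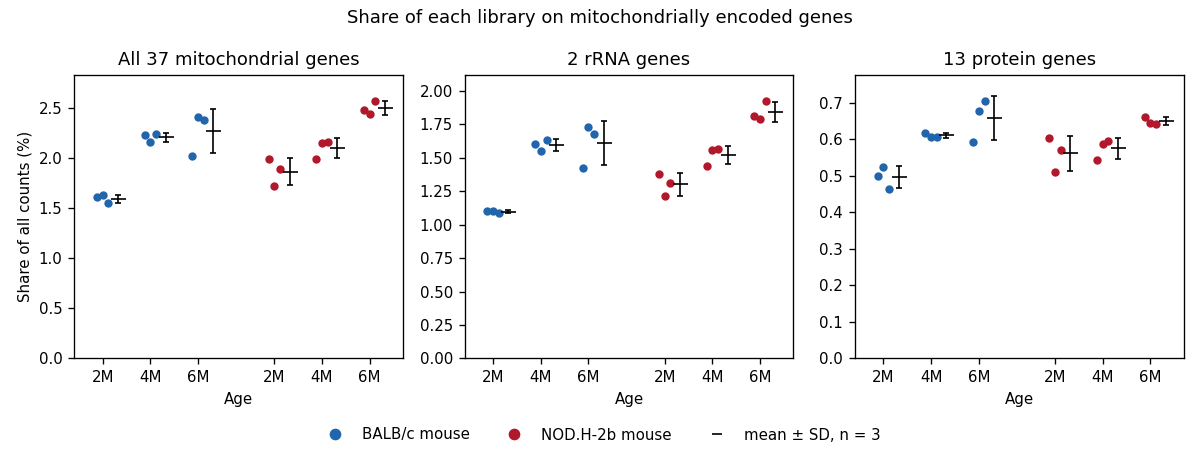
Share of all counts in percent on all 37 mitochondrial genes, on the 2 rRNA genes and on the 13 protein genes, by age, for each mouse (points, black marks are mean ± SD, n = 3). For all 37 genes, NOD.H-2b mice lie above BALB/c mice at 2M and 6M, while relative to TMM library sizes the 37 genes were lower in NOD.H-2b.

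Markers of cell types moved with strain and age. All 20 epithelial markers were detected in every group, and their summed level in NOD.H-2b was above that of BALB/c at 2M (2366 to 2923 against 2020 to 2057 CPM), and below it at 4M (1655 to 2165 against 2382 to 2494) and at 6M (1406 to 1730 against 2143 to 2267). The 8 B cell markers summed to at most 2.75 CPM in any BALB/c mouse while NOD.H-2b mice ranged from 1.73 to 28.3 at 2M, 145.5 to 322 at 4M and 221 to 440.3 at 6M. The 8 T cell markers came to at most 5.98 CPM in any BALB/c mouse and, by age, to 9.3 to 33.5, 70.6 to 126.1 and 80.2 to 111.6 CPM in those of NOD.H-2b. The 8 macrophage markers ranged from 162 to 254 CPM in NOD.H-2b against 50.7 to 114.5 in BALB/c. In sum the 6 plasma cell markers overlapped at 2M (555 to 673 against 568 to 589 CPM). Their sum in NOD.H-2b was above BALB/c at 4M (920 to 1154 against 666 to 772) and 6M (969 to 1079 against 696 to 813). Of the single plasma cell markers, 4 were called higher and 2 lower in NOD.H-2b over all ages. Summed, the 5 endothelial markers were below BALB/c at 2M (39.01 to 41.5 against 41.9 to 48.1 CPM). They were above it at 4M (46.4 to 62.6 against 36.1 to 39.4) and 6M (53.4 to 69.2 against 29.2 to 33.3). Single endothelial markers were split, with 2 called higher and 3 lower in NOD.H-2b over all ages, where 65.5% of all genes were called. Their median log2 fold change was -0.002, -0.24 and 0.05 at 2M, 4M and 6M. The 5 erythroid markers summed to 42.2 to 83.5 CPM in NOD.H-2b against 26.2 to 35.2 in BALB/c at 2M, and overlapped at 4M (49.3 to 91.5 against 30.4 to 52.3) and 6M (32.7 to 53.03 against 30.1 to 58.8). The 6 myoepithelial markers were lower in NOD.H-2b at 4M (93.4 to 98.6 against 110 to 142.4 CPM in sum) and overlapped at 2M and 6M, and the 6 adipocyte markers summed to at most 6.22 CPM in any mouse and overlapped at every age. Skeletal muscle and brown fat are rich in mitochondria. The 10 muscle markers summed to 0.975 to 2.10 CPM in BALB/c against 0.247 to 0.876 in NOD.H-2b, with the fast myosin Myh4 at 0 in 5 of the 6 groups. The 5 brown fat markers summed to 2.05 to 3.98 CPM in BALB/c against 0.418 to 0.944 in NOD.H-2b, with Elovl3 at 0 in every mouse and Ucp1 at 0 in BALB/c at 2M and 6M. Single markers of both tissues were split between the strains, with 2 called higher and 2 lower in NOD.H-2b of the 4 muscle markers tested over all ages, and 1 higher and 1 lower of 3 brown fat markers. The part of these cell types in the differences of the mt- genes was not tested.

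The make-up of the mitochondrial counts does not depend on how libraries are scaled, and it differed between the strains. Of 15 ratios among mt- genes, tested as logs, 12 passed the exact permutation test of strain within age. The 12 are tied to each other and are not separate results. Shares of the protein genes have a common total, so a higher share of mt-Co1 goes with lower shares of other genes. Some ratios also hold nearly the same counts. mt-Co1, the catalytic subunit of complex IV, made up, of all protein gene counts, 35, 34.3 and 37% at 2M, 33.7, 33.6 and 34.1% at 4M and 33.4, 31.9 and 30.8% at 6M in BALB/c. In NOD.H-2b it made up 44.5, 47.6 and 44.3% at 2M, 42.6, 40.3 and 38.2% at 4M and 42, 42.7 and 40.7% at 6M. Every NOD.H-2b mouse was above every BALB/c mouse, and the share was 1.26 times as high (adjusted p = 0.000417, where 0.00025 before adjustment is the smallest p that 8000 arrangements allow in this two-sided exact test).

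mt-Nd2, a membrane subunit of complex I, made up 10.1, 9.91 and 9.48% at 2M, 9.92, 9.44 and 8.84% at 4M and 10.4, 10.9 and 11.7% at 6M in BALB/c. In NOD.H-2b it made up 6.64, 6.36 and 7.09% at 2M, 6.74, 6.85 and 7.55% at 4M and 6.71, 6.69 and 6.93% at 6M. The groups did not overlap, and the share was 0.68 times that of BALB/c (adjusted p = 0.000417, exact permutation test). mt-Nd4, another membrane subunit of complex I, made up 6.46, 6.89 and 6.16% at 2M, 8.65, 8.57 and 9.28% at 4M and 7.55, 8.85 and 9.11% at 6M in BALB/c. In NOD.H-2b it made up 5.04, 4.67 and 5.34% at 2M, 6.05, 6.44 and 7.55% at 4M and 6.36, 6.18 and 7.19% at 6M. Its share was lower in every NOD.H-2b mouse than in BALB/c mice of the same age, at 0.766 times (adjusted p = 0.000417, exact permutation test). mt-Nd5 (0.881 times) and mt-Cytb (0.909 times) also made up less of the protein gene counts, both at an adjusted p of 0.000417 in the exact permutation test. mt-Nd6 made up more (1.18 times, adjusted p = 0.000682, exact permutation test). The share of mt-Nd1 was 0.986 times that of BALB/c (adjusted p = 0.638, exact permutation test). Summed, the complex I genes came to 0.847 times the BALB/c share and the complex IV genes, nearly all mt-Co1, to 1.26 times (adjusted p = 0.000417 each, exact permutation test). The remainder of the 12 are mt-Nd6 per count of the other protein genes (1.18 times) and 3 ratios of the rRNAs.

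The 2 rRNAs, which form the small (mt-Rnr1) and the large (mt-Rnr2) subunit of the mitochondrial ribosome, shifted against each other. The ratio of mt-Rnr2 to mt-Rnr1 counts was 2.76, 2.74 and 2.76 at 2M, 2.23, 2.27 and 2.14 at 4M and 2.45, 2.13 and 1.87 at 6M in BALB/c. In NOD.H-2b it was 3.65, 4.01 and 3.6 at 2M, 3.12, 2.86 and 2.53 at 4M and 3.29, 3.17 and 2.6 at 6M. It was higher in every NOD.H-2b mouse than in BALB/c mice of the same age, 1.35 times on average (adjusted p = 0.000417, exact permutation test). Per protein gene count, mt-Rnr1 was 0.863 times (adjusted p = 0.00438) and mt-Rnr2 1.16 times (adjusted p = 0.000417) the BALB/c value, both by the exact permutation test. Residual rRNA after depletion was not measured, so its part in these ratios was not tested. With mt-Nd1, mt-Nd6 and mt-Cytb as the only protein genes, those with no shared window and enough counts, mt-Nd6 and mt-Cytb and all ratios of rRNAs still passed the test, and the ratios of mt-Co1, mt-Nd2, mt-Nd4 and mt-Nd5 could not be formed.

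**Figure D3:**
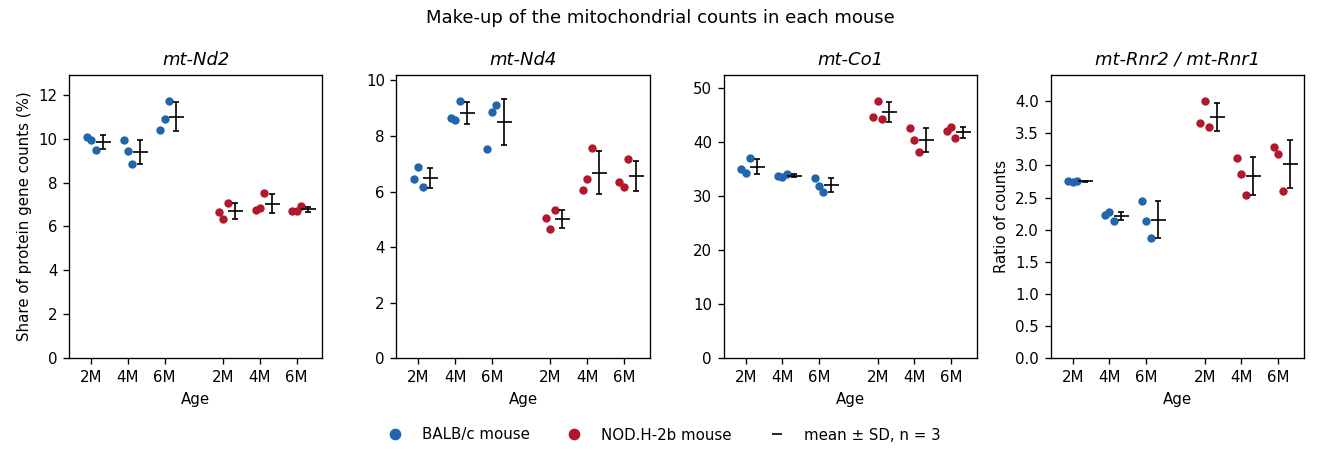
Make-up of the mitochondrial counts in each mouse by age (points, black marks are mean ± SD, n = 3): percentage of protein gene counts on mt-Nd2, mt-Nd4 and mt-Co1, and the ratio of mt-Rnr2 to mt-Rnr1 counts. mt-Nd2 is lower and mt-Co1 higher in every NOD.H-2b mouse than in any BALB/c mouse, and these ratios do not depend on the scaling of libraries.

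Levels per gene were compared between the strains at each age by edgeR's quasi-likelihood test with TMM normalization, on the 6 mice of that age. A gene was called at an adjusted p (FDR) under 0.05. Low counts left 13, 12 and 15 of the 37 genes for the tests at 2M, 4M and 6M. At 2M, 7 were called, 3 higher and 4 lower in NOD.H-2b, in a comparison that called 39.8% of all genes tested. At 4M, 5 were called, all lower (42.6% of all genes). At 6M, 8 were called, all lower (54.4% of all genes), and 3 of them changed at least 2-fold. The share of all genes called lower was 17.2%, 19.2% and 25.8% at 2M, 4M and 6M, that called higher at 2M was 22.5%, and 24.8% were called with at least 2-fold at 6M. Averaged over ages in a fit of all 18 mice, 8 of 17 were called, all lower (65.5% of all genes, 33.1% lower). As a description, the median log2 fold change of the tested members was -0.19, -0.21 and -0.52 at 2M, 4M and 6M and -0.38 averaged over ages. The count at 2M fell to 3 without BALB/c 2M replicate 1 and 4 without replicate 2, and the count at 4M to 3 without BALB/c 4M replicate 1 or 2. When counts were scaled to the library total instead, the median log2 fold change of all genes moved from 0.01, 0.00 and 0.00 to 0.20, 0.15 and 0.38 at 2M, 4M and 6M, and the calls became 3 higher and 1 lower, 1 higher and 3 lower, and 3 higher and 5 lower. Of all genes, 37.8% were then called higher and 8.33% lower at 2M, 27.7% and 11.2% at 4M and 47.8% and 9.01% at 6M. Directions between the strains are therefore given on both scales, TMM before the library total.

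**Figure D4:**
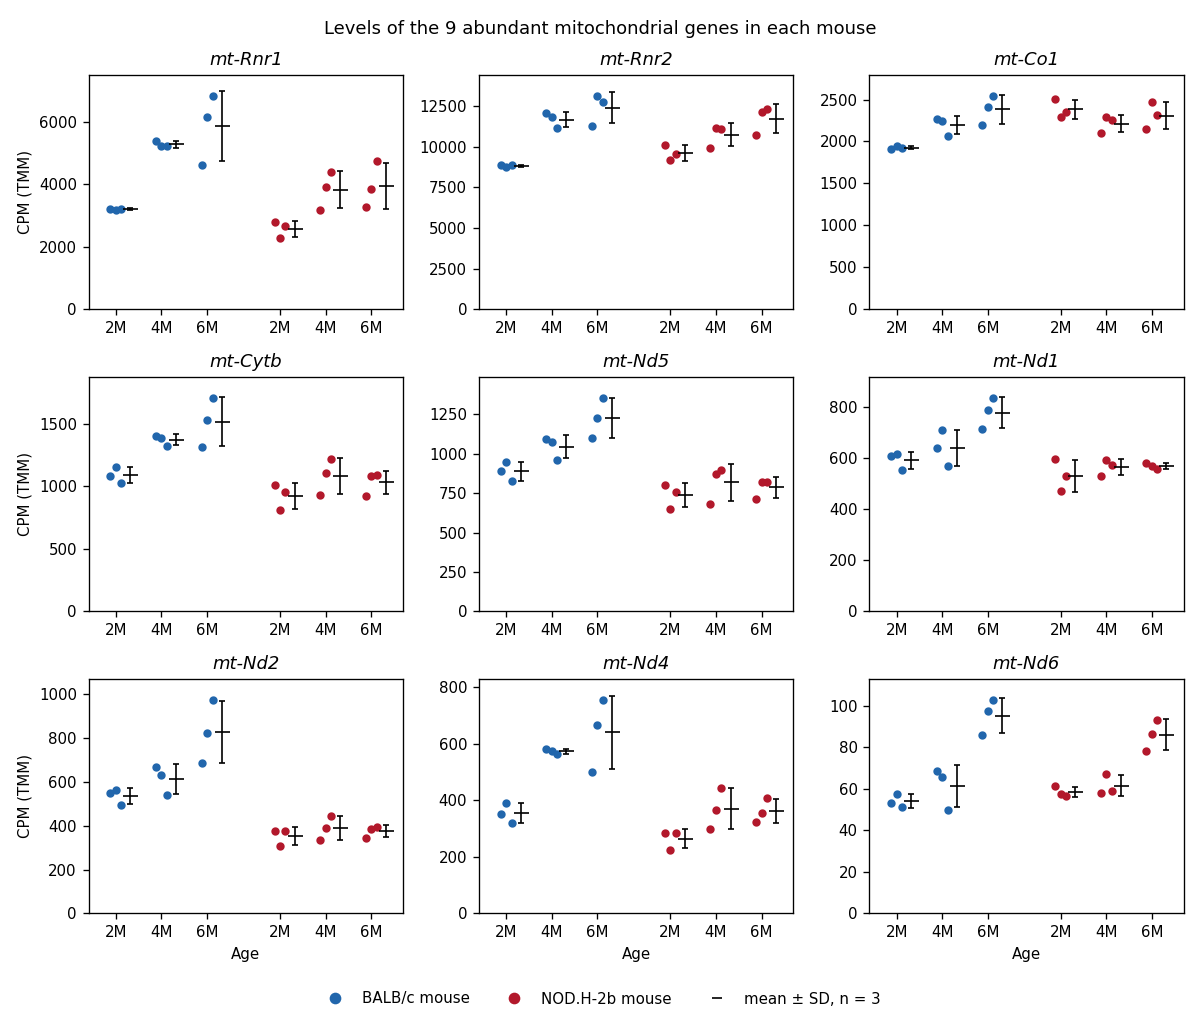
Level of the 9 abundant mitochondrial genes in each mouse by age, in CPM after TMM normalization (points, black marks are mean ± SD, n = 3). At 6M the groups do not overlap for mt-Nd1, mt-Nd2, mt-Nd4, mt-Nd5 and mt-Cytb and overlap for mt-Rnr1, mt-Rnr2, mt-Co1 and mt-Nd6. Scaled to the library total, mt-Rnr2, mt-Co1 and mt-Nd6 were higher in NOD.H-2b at 6M.

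mt-Nd2 was lower in NOD.H-2b at every age on both scales. Its level was 549.5, 563 and 492 CPM at 2M, 667, 631 and 537 at 4M and 686, 819.7 and 969 at 6M in BALB/c. NOD.H-2b mice had 375, 306 and 377 CPM at 2M, 332, 389 and 444 at 4M and 343, 386 and 393 at 6M. The groups did not overlap at any age. The log2 fold change was -0.56 ± 0.09 (SE, adjusted p = 0.000853) at 2M, -0.65 ± 0.12 (SE, adjusted p = 0.00178) at 4M and -1.11 ± 0.13 (SE, adjusted p = 7.14e-05) at 6M. On the library total it was -0.37, -0.50 and -0.72, called at each age (largest adjusted p = 0.0132 by edgeR). Of the 9 abundant genes, it alone was called at every age on both scales.

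mt-Nd4 was 352, 391 and 320 CPM at 2M, 581, 573 and 564 at 4M and 498, 667 and 752 at 6M in BALB/c. The NOD.H-2b values were 284, 224 and 284 CPM at 2M, 299, 366 and 445 at 4M and 324, 356 and 408 at 6M. The groups did not overlap at any age, and the log2 fold change was -0.38 ± 0.11 (SE, adjusted p = 0.0299) at 2M, -0.63 ± 0.13 (SE, adjusted p = 0.00373) at 4M and -0.78 ± 0.15 (SE, adjusted p = 0.00169) at 6M. On the library total it was -0.20, -0.48 and -0.40, and the call at 2M was lost (adjusted p = 0.238 by edgeR). With TMM it was lost without BALB/c 2M replicate 1 (adjusted p = 0.0718) or replicate 2 (0.0664).

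mt-Nd5, a further membrane subunit of complex I, was 892, 947 and 828 CPM at 2M, 1097, 1074 and 961 at 4M and 1102, 1229 and 1353 at 6M in BALB/c. Levels in NOD.H-2b were 803, 651 and 761 CPM at 2M, 683, 872 and 901 at 4M and 712, 824 and 824 at 6M. The groups did not overlap at any age, and the log2 fold change went from -0.23 ± 0.08 (SE, adjusted p = 0.0416) at 2M to -0.35 ± 0.11 (SE, adjusted p = 0.0282) at 4M and -0.61 ± 0.12 (SE, adjusted p = 0.00158) at 6M. On the library total it was called at 6M (-0.23, adjusted p = 0.0192) but not at 2M (-0.04) or 4M (-0.20). The call at 2M was lost in 1 fit of all 18 mice (adjusted p = 0.0592) and among genes with at least 10 counts in every mouse (0.051). Without BALB/c 2M replicate 1 or 2 or NOD.H-2b 2M replicate 3 its adjusted p at 2M was 0.107, 0.15 and 0.0583. Without BALB/c 4M replicate 1 or 2 it was 0.11 and 0.0983 at 4M, by edgeR.

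mt-Cytb, the mitochondrial subunit of complex III, was 1084, 1157 and 1028 CPM at 2M, 1406, 1390 and 1325 at 4M and 1314, 1530 and 1706 at 6M in BALB/c. NOD.H-2b mice showed 1009, 809.9 and 959 CPM at 2M, 931, 1108 and 1219 at 4M and 924, 1084 and 1089 at 6M. The groups did not overlap at any age. The log2 fold change was -0.19 ± 0.08 (SE, adjusted p = 0.078) at 2M, -0.33 ± 0.10 (SE, adjusted p = 0.0226) at 4M and -0.52 ± 0.13 (SE, adjusted p = 0.0067) at 6M, and on the library total it was not called at any age (-0.01, -0.19 and -0.14). At 2M it was called without NOD.H-2b 2M replicate 1 (adjusted p = 0.0168 by edgeR), without a filter on low counts (0.0017) and by DESeq2 (0.0258). At 4M the adjusted p was 0.0888 without BALB/c replicate 1, 0.0811 without BALB/c replicate 2 and 0.0558 without NOD.H-2b replicate 2.

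mt-Nd1, a complex I subunit, was 607, 613 and 553 CPM at 2M, 639, 708 and 569 at 4M and 712, 786 and 833 at 6M in BALB/c. Its level reached 595, 469 and 528 CPM at 2M, 529, 592 and 570.4 at 4M and 579, 566 and 556 at 6M in NOD.H-2b. The groups overlapped at 2M and 4M and separated at 6M, where the log2 fold change was -0.42 ± 0.10 (SE, adjusted p = 0.00468). On the library total it was -0.03 at 6M (adjusted p = 0.781 by edgeR). Values at 2M and 4M were -0.11 and -0.17, not called, and without NOD.H-2b 2M replicate 1 the gene was called at 2M (adjusted p = 0.0236).

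mt-Co1 did not share this direction. It was 1908, 1946 and 1919 CPM at 2M, 2263, 2243 and 2070 at 4M and 2202, 2406 and 2541 at 6M in BALB/c. The level in NOD.H-2b was 2510, 2291 and 2357 CPM at 2M, 2101, 2289 and 2250 at 4M and 2143, 2465 and 2313 at 6M. It was higher in NOD.H-2b at 2M on both scales (0.35 ± 0.05, adjusted p = 0.000193 with TMM, 0.54 on the library total). The groups overlapped at 4M (0.02) and 6M (-0.01) with TMM, whereas on the library total it was higher at both ages (0.17 and 0.37, adjusted p = 0.0453 and 0.000912 by edgeR).

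mt-Nd6 was 53.1, 57.7 and 51.4 CPM at 2M, 68.9, 65.8 and 49.9 at 4M and 85.8, 97.5 and 103 at 6M in BALB/c. For NOD.H-2b mice, levels of 61.2, 57.6 and 56.7 CPM at 2M, 58.1, 67.3 and 59.1 at 4M and 78.4, 86.7 and 93.4 at 6M were measured. At 2M the groups overlapped slightly and the gene was called higher on both scales (0.16 ± 0.06, adjusted p = 0.0466 with TMM, 0.34 on the library total). Without BALB/c 2M replicate 1 or 3 or without any of the NOD.H-2b 2M mice its adjusted p lay between 0.0548 and 0.191. The call was also lost with RLE factors, the size factors of DESeq2 (adjusted p = 0.0587), with upper quartile factors (0.0678), without a filter on low counts (0.0639), by DESeq2 (0.102) and in 1 fit of all 18 mice (0.421). Later differences were 0.01 at 4M and -0.11 at 6M with TMM, not called, against 0.16 and 0.27 on the library total, of which the value at 6M was called (adjusted p = 0.0112 by edgeR).

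**Figure D5:**
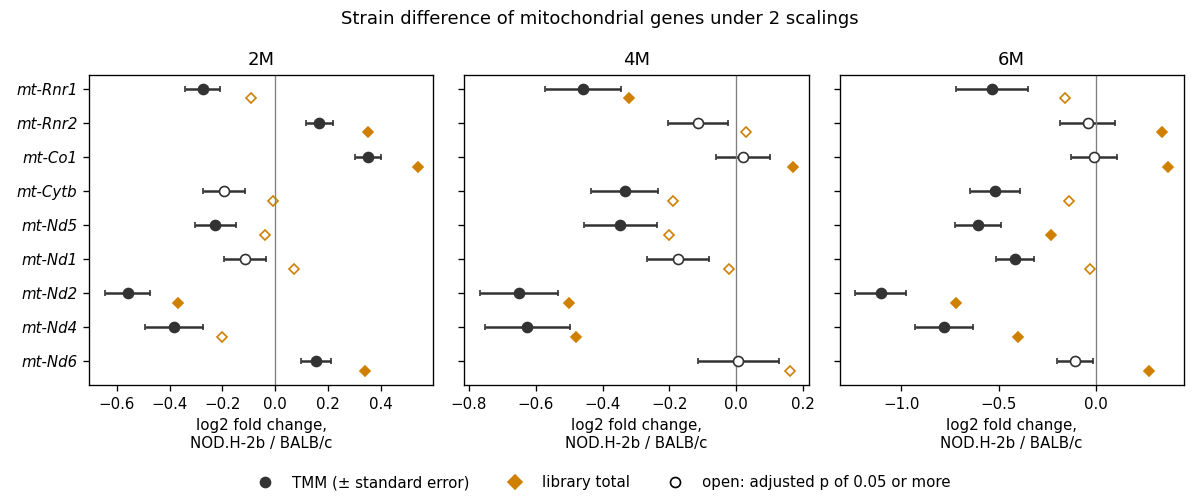
Log2 fold change of NOD.H-2b against BALB/c for the 9 abundant genes at 2M, 4M and 6M, with TMM normalization (circles ± standard error) and scaled to the library total (diamonds). Open symbols have an adjusted p of 0.05 or more in edgeR's test. mt-Nd2 lies left of 0 and filled at every age on both scales, whereas mt-Rnr2, mt-Co1 and mt-Nd6 at 6M change from near 0 with TMM to 0.27 to 0.37 on the library total.

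mt-Rnr1 was 3213, 3186 and 3221 CPM at 2M, 5400, 5226 and 5209 at 4M and 4617, 6157 and 6823 at 6M in BALB/c. Mice of the NOD.H-2b strain had 2776, 2287 and 2665 CPM at 2M, 3190, 3913 and 4388 at 4M and 3266, 3837 and 4744 at 6M. The groups did not overlap at 2M and 4M and overlapped at 6M. The log2 fold change was -0.27 ± 0.07 (SE, adjusted p = 0.00637), -0.46 ± 0.11 (SE, adjusted p = 0.00898) and -0.54 ± 0.18 (SE, adjusted p = 0.0317) at 2M, 4M and 6M, and on the library total it was called at 4M alone (-0.09, -0.32 and -0.16). In 1 fit of all 18 mice the call at 2M was lost (-0.32, adjusted p = 0.0941 by edgeR). The call at 6M was lost without BALB/c replicate 2 (adjusted p = 0.093) or 3 (0.12) or NOD.H-2b replicate 1 (0.107) or 2 (0.0645), by edgeR.

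mt-Rnr2 was 8854, 8734 and 8889 CPM at 2M, 12060, 11860 and 11140 at 4M and 11310, 13130 and 12790 at 6M in BALB/c. NOD.H-2b levels were 10140, 9163 and 9585 CPM at 2M, 9937, 11190 and 11110 at 4M and 10730, 12170 and 12330 at 6M. At 2M all NOD.H-2b mice were above all BALB/c mice (0.17 ± 0.05, adjusted p = 0.0224 with TMM, 0.35 on the library total). With TMM the call was lost without BALB/c replicate 1, 2 or 3 (adjusted p = 0.0938, 0.11 and 0.0686) or NOD.H-2b replicate 1 (0.0918), and in 1 fit of all 18 mice (0.256). At 4M and 6M it was -0.12 and -0.04 with TMM, not called, and 0.03 and 0.34 on the library total, called at 6M (adjusted p = 0.0025 by edgeR).

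Among the genes with few counts, mt-Co2 and mt-Tq were called at 6M. At this age mt-Co2 had 22, 22 and 16 counts in BALB/c against 2, 7 and 5 in NOD.H-2b, with no overlap. Its counts were 7, 6 and 10 against 8, 9 and 12 at 2M and 10, 9 and 5 against 7, 13 and 8 at 4M, and overlapped. Its log2 fold change at 6M was -2.15 ± 0.56 (SE, adjusted p = 0.00895) with TMM and -1.79 on the library total, on counts that are 99.5% shareable with a nuclear copy by sequence. mt-Tq, the tRNA for glutamine, had 28, 18 and 15 counts in BALB/c against 6, 10 and 3 in NOD.H-2b at 6M, and 22, 18 and 10 against 11, 7 and 13 at 2M and 14, 9 and 9 against 4, 8 and 5 at 4M. Its log2 fold change was -1.71 ± 0.49 (SE, adjusted p = 0.0138) with TMM and -1.33 on the library total (adjusted p = 0.0408), and with TMM without NOD.H-2b 6M replicate 1 or 3 the adjusted p was 0.058 and 0.0572. Over all ages, mt-Tq was -1.21 with TMM (adjusted p = 0.001 by edgeR) and -0.95 on the library total (adjusted p = 0.00631). mt-Tm, the tRNA for methionine, was -0.37 with TMM (adjusted p = 0.0335) and -0.10 on the library total (adjusted p = 0.55). Its call with TMM was lost with RLE factors, with either other filter on low counts and by DESeq2 (adjusted p = 0.0515 to 0.0568). It was also lost (adjusted p = 0.0513 to 0.0944 by edgeR) without BALB/c 2M replicate 1, 4M replicate 1 or 2 or 6M replicate 3, and without NOD.H-2b 2M replicate 2 or replicate 1 or 2 at 4M or 6M. The rest of these genes were not called over all ages on either scale. mt-Ti, the tRNA for isoleucine, was -0.22 with TMM and 0.05 on the library total, mt-Tw, for tryptophan, 0.04 and 0.30, and mt-Tp, for proline, -0.63 and -0.36. mt-Co2 was -0.65 and -0.39 over all ages, mt-Co3 -0.39 and -0.13, and mt-Atp6 -0.27 and -0.01.

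Averaged over the ages, the log2 fold change with TMM was -0.80 ± 0.07 (SE, adjusted p = 2.97e-08) for mt-Nd2 by edgeR. It was -0.62 for mt-Nd4, -0.45 for mt-Rnr1, -0.42 for mt-Nd5, -0.38 for mt-Cytb and -0.26 for mt-Nd1, all called. Scaled by the library total, mt-Nd2 (-0.53), mt-Nd4 (-0.36), mt-Rnr1 (-0.19) and mt-Nd5 (-0.16) were called lower, while mt-Cytb (-0.11) and mt-Nd1 (0.01) were not called. The other abundant genes were not called with TMM, with 0.09 for mt-Co1, -0.03 for mt-Rnr2 and -0.01 for mt-Nd6, and were called higher on the library total (0.36, 0.24 and 0.26). mt-Co1 was also called higher with TMM when BALB/c 2M replicate 2 or 3, BALB/c 4M replicate 1 or 2, BALB/c 6M replicate 2 or 3, NOD.H-2b 4M replicate 1 or NOD.H-2b 6M replicate 1 was left out (0.10 to 0.13), and with the size factors of DESeq2, its Wald test or another filter on low counts (0.11 to 0.14).

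Age was compared within each strain in the same way. In BALB/c from 2M to 4M, 6 of 13 tested genes were called, all higher (11.1% of all genes called, 6.10% higher). mt-Rnr1 (0.72 ± 0.04, adjusted p = 1.44e-06) and mt-Nd4 (0.70 ± 0.06, adjusted p = 5.81e-05) rose most, and the rise was 0.77 and 0.74 on the library total. The others were mt-Rnr2 (0.41), mt-Cytb (0.34), mt-Nd5 (0.24) and mt-Co1 (0.19), and all 6 were also called on the library total (5.69% of all genes higher). mt-Co1 and mt-Nd5 lost the call without BALB/c 2M replicate 1 (adjusted p = 0.106 and 0.0917) or replicate 3 (0.0873 and 0.128). The same held without BALB/c 4M replicate 1 (0.0728 and 0.0868) or replicate 2 (0.0641 and 0.0908), and for mt-Co1 without BALB/c 2M replicate 2 (0.087). In 1 fit of all 18 mice, mt-Co1 (adjusted p = 0.156), mt-Nd5 (0.238) and mt-Cytb (0.0877) were not called.

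From 2M to 6M, 8 of 15 genes were called in BALB/c, all higher (5.61% of all genes called, 3.48% higher). They were mt-Rnr1 (0.87), mt-Nd6 (0.81 ± 0.07, adjusted p = 7.83e-05), mt-Nd2 (0.62), mt-Rnr2 (0.49), mt-Cytb (0.47), mt-Nd5 (0.46), mt-Nd1 (0.39) and mt-Co1 (0.30), and all 8 were called on the library total too (2.74% of all genes higher). Fewer were called without BALB/c 2M replicate 1 (4), 2 (5) or 3 (4) or without BALB/c 6M replicate 2 (5). The calls lost there were those of mt-Rnr1, mt-Nd2, mt-Co1 and mt-Cytb, with adjusted p between 0.0558 and 0.19 by edgeR. Without BALB/c 6M replicate 3, mt-Rnr1 had an adjusted p of 0.0502, and without a filter on low counts of 0.0779. mt-Nd2 was not called with a library size without mt- genes (adjusted p = 0.05075) or with a replicate block (0.0926, both by edgeR).

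In NOD.H-2b, mt-Rnr1 was the only one of 12 tested genes called from 2M to 4M (0.57 ± 0.12, adjusted p = 0.0195, 15.8% of all genes called, 10.3% higher). It was not called without NOD.H-2b 2M replicate 1 (adjusted p = 0.05005) or 3 (0.0766) or NOD.H-2b 4M replicate 2 (0.059), and 2 genes were called without NOD.H-2b 4M replicate 1. From 2M to 6M, 3 of 13 were called, all higher (40.0% of all genes called, 20.7% higher): mt-Rnr1 (0.60 ± 0.16, adjusted p = 0.0163), mt-Nd4 (0.44 ± 0.12, adjusted p = 0.0184) and mt-Nd6 (0.54 ± 0.08, adjusted p = 0.00148). On the library total these 3, mt-Rnr2 (0.43) and mt-Cytb (0.30) were called (24.9% of all genes higher). Without NOD.H-2b 2M replicate 2 or NOD.H-2b 6M replicate 3 only 1 was called, and mt-Rnr1 had an adjusted p of 0.0614 and 0.0774, and mt-Nd4 of 0.0675 and 0.089. Without NOD.H-2b 2M replicate 3 the adjusted p of mt-Rnr1 was 0.0572. From 4M to 6M no mt- gene was called in either strain by edgeR (of all genes, 0.307% were called for BALB/c, 0.00555% for NOD.H-2b). At an unadjusted p under 0.05 there were 6 for BALB/c against 2 for NOD.H-2b, and DESeq2 called 2 and 1.

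Whether the strain difference itself changed with age was tested in the fit of all 18 mice. From 2M to 4M none of 17 tested genes was called by edgeR (1.67% of all genes called), with 2 at an unadjusted p under 0.05 and 1 called by DESeq2. From 2M to 6M, 3 were called, all toward lower in NOD.H-2b (16.1% of all genes called, 9.09% in that direction). They were mt-Co1 (-0.36 ± 0.10, adjusted p = 0.0279), mt-Nd2 (-0.54 ± 0.18, adjusted p = 0.0486) and mt-Co2 (-2.32 ± 0.75, adjusted p = 0.0423), and none was called on the library total (-0.17, -0.35 and -2.15, with adjusted p = 0.13, 0.132 and 0.058 by edgeR, 12.9% of all genes called). With TMM, mt-Nd2 was not called with RLE factors (adjusted p = 0.0581) or without a filter on low counts (0.105), where mt-Co2 was not called either (0.0888). With TMM the count fell to 0 without NOD.H-2b 2M replicate 1 and to 1 without BALB/c 2M replicate 1, NOD.H-2b 2M replicate 3, BALB/c 6M replicate 2 or 3 or NOD.H-2b 6M replicate 1 or 3. mt-Co1 kept its call without every other single mouse, whereas mt-Nd2 lost it without any of 10 mice (adjusted p = 0.0535 to 0.143) and mt-Co2 without any of 9 (0.0529 to 0.124).

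The nuclear genes that serve the mitochondrial genome and its products were read from lists beside the mt- genes, with the strain difference averaged over ages (65.5% of all genes called, median of all genes -0.02 with TMM and 0.25 on the library total). Of 70 nuclear subunits of the chain tested, NOD.H-2b mice had 48 lower and 3 higher with TMM (median log2 fold change -0.19), which turned to 4 lower and 26 higher on the library total (median 0.08). Of 78 mitochondrial ribosomal proteins, 39 were lower and 2 higher (median -0.13), against 6 lower and 36 higher on the library total (median 0.13). Of 20 genes that mark mitochondrial content, 15 were lower and 1 higher (median -0.18), against 2 lower and 10 higher on the library total (median 0.09). Of all genes, 33.1% were called lower and 32.5% higher with TMM, against 14.3% lower and 53.3% higher on the library total. On both scales the medians of these lists were below the median of all genes. By age with TMM, 10, 13 and 47 of the 70 chain subunits were lower at 2M, 4M and 6M, and 2, 1 and 2 higher. Of the 78 ribosomal proteins, 8, 10 and 31 were lower and 2, 0 and 1 higher. Of the 20 content genes, 8, 5 and 11 were lower and 1 higher at each age. Of all genes, 17.2%, 19.2% and 25.8% were called lower at these ages.

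Some named genes of these lists had the same direction on both scales. Ndufs5, a complex I subunit, was -2.30 ± 0.08 with TMM (adjusted p = 3e-14 by edgeR) and -2.03 on the library total. Atp5e, a subunit of the ATP synthase, was 0.45 ± 0.05 and 0.71. Mrps10 of the small ribosomal subunit was -0.86 ± 0.10 and -0.60, and Mrpl23 of the large subunit was 0.40 ± 0.11 and 0.67. Slc25a4, the ADP/ATP carrier of the inner membrane, was 0.72 ± 0.09 and 0.99, and each of these was called on both scales. Timm23 of the import channel was -0.40 ± 0.06 with TMM (adjusted p = 9.75e-06) and -0.13 on the library total (adjusted p = 0.0653).

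The machinery that transcribes and maintains mitochondrial DNA gave 7 lower and 5 higher of 22 tested genes with TMM (median 0.09), and 0 lower and 13 higher on the library total (median 0.35). Tfam, which packages mitochondrial DNA and starts transcription, was higher on both scales, by 0.21 ± 0.05 (SE) with TMM (adjusted p = 0.000997) and 0.48 on the library total. Polrmt, the mitochondrial RNA polymerase, was 0.08 ± 0.06 (adjusted p = 0.221) and 0.35 (adjusted p = 0.000149), and among genes with at least 10 counts in every mouse it was called with TMM (0.13, adjusted p = 0.0451). Tfb2m, its partner in initiation, was -0.17 ± 0.06 (adjusted p = 0.0218) and 0.10 (adjusted p = 0.206), by edgeR on the TMM scale and the library total in that order, and its call with TMM was lost (adjusted p = 0.0574 to 0.0923) without BALB/c 2M replicate 2 or 3, 4M replicate 1 or 3 or 6M replicate 3, and with RLE factors, either other filter or DESeq2 (0.0581 to 0.097). Lig3, the mitochondrial DNA ligase, was -0.31 ± 0.04 and -0.04, the second not called (adjusted p = 0.304), and Dna2, a nuclease and helicase, was 0.69 ± 0.11 and 0.96, called on both.

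Regulators of mitochondrial biogenesis gave 6 lower and 7 higher of 14 (median 0.16), and 2 lower and 9 higher on the library total (median 0.43). Ppard, a nuclear receptor for fatty acids, was higher by 1.12 ± 0.10 and 1.39, and Ppara, a related receptor, was lower (-0.75 ± 0.09 and -0.49), each called on both scales. Ppargc1a, a coactivator of biogenesis, was higher by 1.18 ± 0.29 (adjusted p = 0.0013 by edgeR) and 1.45 at a low level, with an average log2 CPM of -1.93.

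Genes for processing and stability of mitochondrial RNA gave 12 lower and 6 higher of 34 (median -0.07), and 2 lower and 18 higher on the library total (median 0.20). Elac2 and Hsd17b10 act in freeing tRNAs from the precursors. Elac2 was -0.18 ± 0.04 with TMM (adjusted p = 0.00158) and 0.08 on the library total (adjusted p = 0.099), while Hsd17b10 was lower on both (-0.54 ± 0.05 and -0.28). Slirp and Lrpprc form a complex that protects mitochondrial messenger RNAs. Slirp was higher on both scales (0.25 ± 0.07 and 0.51). Lrpprc was -0.03 ± 0.04 with TMM (adjusted p = 0.459) and 0.23 on the library total (adjusted p = 0.000133 by edgeR). Mrm1, which methylates the large rRNA, was higher by 0.64 ± 0.11 and 0.90, called on both.

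Over the 18 mice, the genes most alike in level to the summed protein genes, among 11878 genes compared, were Trim44 (Spearman's rho 0.884), Tsg101 (0.88) and Ankdd1a (0.88), given as a description of mice that share strain, age and library scaling.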

How the data were processed

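Total RNA of single LGs was depleted of rRNA, and libraries were made with a NEBNext Ultra II kit and sequenced as read pairs. The authors trimmed reads with cutadapt, checked them with FastQC, mapped them with STAR (GRCm38) and obtained counts per Ensembl gene from HTSeq, with versions, strand setting and treatment of reads with several matches not given in the sources used here. The deposited table of raw counts for the 18 mice was used as it stands, and a second deposited table of normalized log2 values was not used. Replicate libraries of a group differed by 17.7 to 91.1 per gene in a chi-square of their counts, so none was a copy of another.

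The 37 members and all gene lists were chosen with earlier results of these data known. Of the 54232 genes, 54079 were named by identifier in GENCODE M21. Symbols of 13 members came from that match. All 75-base windows of the mt- transcripts were searched on both strands in the M21 transcripts of other genes. Sequences were printed from the M21 transcripts.

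The tests of strain at a given age and of age in a given strain used edgeR's quasi-likelihood method (edgeR 4.0.16, limma 3.58.1, R 4.3.3) with TMM normalization, filterByExpr and robust dispersions on the 6 mice of each comparison, and a fit of all 18 mice served for strain averaged over ages and strain by age. P-values were adjusted by Benjamini-Hochberg over all genes tested, and genes were called under 0.05. Every p-value of a single gene in the text is from this test unless DESeq2 (1.42.0) is named. It measures the spread between mice, 1 library each. Shares and ratios were compared by two-sided exact permutation within age (8000 arrangements) or within strain (400 arrangements, smallest p 0.005), adjusted over each family, in Python 3.11.15. A strain comparison at a single age (3 mice against 3) cannot go below p = 0.1 in an exact permutation test. The tests were checked on simulated counts.

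Values per mouse are CPM with TMM factors of the fit of all mice. Genes named with values in every mouse were those called between the strains at any age or in strain by age. Each nuclear list is represented by its called members with the largest and smallest averaged log2 fold change among those averaging 1 or more on the log2 CPM scale, plus Tfam, Polrmt, Tfb2m, Ppargc1a, Lrpprc, Slirp and Elac2. The alternatives were other normalizations (RLE, the size factors of DESeq2, and upper quartile), other filters on low counts, a library size without mt- genes, 1 fit of all mice, DESeq2, a replicate block and leaving out each mouse. The library total without a normalization factor, and the shares by age, were added after seeing the data.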

Additional observations from a re-analysis of the deposited data

Results flagged for a closer look

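The strain difference of 3 mitochondrial genes changed between 2M and 6M in edgeR's test of that change over all 18 mice, toward lower levels in NOD.H-2b. The change was -0.36 on the log2 scale for mt-Co1, -0.54 for mt-Nd2 and -2.32 for mt-Co2. For mt-Co1 the difference between strains went from 0.35 at 2M to -0.01 at 6M with TMM, and from 0.54 to 0.37 on the library total. For mt-Nd2 it went from -0.56 to -1.11 with TMM and from -0.37 to -0.72 on the library total. None of the 3 changes passed the test on the library total, and mt-Co2 rests on 2 to 22 counts per mouse. They were 3 of 17 genes tested, near the 16.1% of all genes called in the same test, and none was called without NOD.H-2b 2M replicate 1.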

How the results depend on the processing

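The main dependence was on the scale of the libraries. On the library total, 4 mt- genes were called between the strains at 2M, 2 in strain by age from 2M to 4M and 0 from 2M to 6M, 1 in BALB/c (4M to 6M) and 5 in NOD.H-2b (2M to 6M), and 30 nuclear subunits of the chain. There, differences changed sign for mt-Nd1 at 2M (0.07), mt-Rnr2 at 4M (0.03) and 6M (0.34), mt-Co1 at 6M (0.37) and mt-Nd6 at 6M (0.27), and averaged over ages for mt-Rnr2 (0.24), mt-Nd1 (0.01), mt-Nd6 (0.26), Tfb2m (0.10), Lrpprc (0.23) and Elac2 (0.08). Shares relative to the TMM library size changed sign to -0.17 for all 37 genes, -0.24 for the protein genes and -0.14 for the rRNA genes. Of 1356 values of single mt- genes under alternatives, 38 changed sign, and 6 of these passed the test before or after the change, all on the library total.

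Without a filter on low counts, 1 gene was called in strain by age from 2M to 6M, 4 (BALB/c) and 1 (NOD.H-2b) between 4M and 6M, and 0 nuclear copies, and mt-Nd6 was at 0.00 at 4M and on average. In 1 fit of all 18 mice the counts were 3 at 2M, 3 for BALB/c between 2M and 4M and 1 between 4M and 6M, and 2 and 1 for NOD.H-2b over the same intervals. DESeq2 called 1 gene in strain by age from 2M to 4M, 2 for BALB/c between 4M and 6M, 2 for NOD.H-2b between 2M and 4M and 1 between 4M and 6M, and 0 nuclear copies. Values near 0 also changed sign with RLE factors and DESeq2 (averaged, mt-Rnr2 0.01, mt-Nd6 0.02 and Lrpprc 0.00 in both), with upper quartile factors (4M, mt-Co1 -0.01 and mt-Nd6 -0.02) and with at least 10 counts in every mouse (6M, mt-Rnr2 0.01 and mt-Co1 0.04, and averaged, mt-Rnr2 0.03, mt-Nd6 0.04 and Lrpprc 0.02). The causes were not tested. With only mt-Nd1, mt-Nd6 and mt-Cytb as protein genes, 6 ratios passed, since others could not be formed, and those of mt-Nd1 (0.06) and the tRNA genes (0.02) changed sign.

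Replicates of different groups share a number but did not deviate together (r from -0.339 to 0.344, with no comparison in which every pair exceeded 0.1). With the replicate number as a block, 0 genes were called for NOD.H-2b between 2M and 4M and 1 between 4M and 6M, and no other count of calls moved by more than 1.5 times. Single calls lost with the block included, between the strains, mt-Nd4 (adjusted p = 0.0816) and mt-Nd5 (0.0635) at 2M and mt-Nd5 at 4M (0.0555). In BALB/c they included mt-Co1 from 2M to 4M (0.0623) and mt-Nd2 from 2M to 6M (0.0926, all by edgeR).

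Leaving out 1 mouse gave 3 to 7 calls at 2M, 3 to 5 at 4M, 0 to 4 in strain by age from 2M to 6M, 4 to 9 for BALB/c between 2M and 6M, 0 to 2 for NOD.H-2b between 2M and 4M, 1 to 4 between 2M and 6M, and 0 to 2 nuclear copies. The log2 difference of the share of all 37 genes ran from 0.07 to 0.12, of the protein genes from 0.00 to 0.05, of the tRNA genes from -0.11 to 0.02, and of the complex V ratio from -0.20 to 0.19. Differences near 0 changed sign, averaged over ages for mt-Nd6 (-0.03 to 0.04), mt-Rnr2 (-0.04 to 0.01) and Lrpprc (-0.06 to 0.00), at 4M for mt-Co1 (-0.02 to 0.06) and mt-Nd6 (-0.13 to 0.09), and at 6M for mt-Co1 (-0.07 to 0.05) and mt-Rnr2 (-0.11 to 0.03). All 12 ratios called between the strains passed without any single mouse. Depth limits mt-Co2, mt-Co3, mt-Atp6, mt-Atp8, mt-Nd3 and mt-Nd4l, with at most 22 counts in any mouse, and the tRNA genes, of which 9 were at 0 in every mouse.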
